A study of Homo sapiens with 8 samples.

Results

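The ROBO receptors (ROBO1, ROBO2, ROBO3 and ROBO4) and their SLIT ligands (SLIT1, SLIT2 and SLIT3) were followed in BEAS-2B cells, an immortalised human bronchial epithelial line used as a model of the airway lining. Members were the 7 genes with these symbols, of 25411 genes listed in each library, and all 7 were found. The family was chosen because of the change of ROBO1 between untreated, nickel-exposed and nickel-washed-out cells, so the values of ROBO1 are a description with no test in any comparison. The other 6 genes were chosen by name, as relatives of ROBO1 or as ligands.

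SLIT proteins are large secreted molecules that bind heparan sulfate in the matrix and are recognised by the outer immunoglobulin domains of ROBO1. Binding recruits adaptor proteins and GTPase regulators to the receptor tail and reorganises actin, which repels growing axons and migrating cells. In the lung and other epithelia the same pathway is known for its part in branching, cell adhesion and migration, ROBO4 is known as a receptor of blood vessel endothelium, and ROBO3 is a divergent receptor known from axons that cross the midline.

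RNA-Seq libraries came from 4 groups with 2 replicates each, which the study's methods call biological. UT libraries came from untreated cells. For Ni-E, nickel-exposed cells, NiCl2 had been present at 100 µM over 6 weeks. For Ni-W, nickel-washed-out cells, this exposure was followed by more than 6 months of growth without nickel as a population derived from a single exposed cell, and both Ni-W libraries came from 1 such randomly picked population. The HCl3 libraries shared their treatment text with Ni-W, with neither the time without nickel nor their relation to Ni-W given. All 4 groups were the same cell line in serum-containing medium, and a group and the clone or experiment number behind it cannot be told apart. Total counts ran from 26383920 to 45692298 reads per library. Levels are given as RPKM, the reads of a gene per kilobase of transcript and per mapped reads of the library, which allows genes of different length to be compared. In bulk RNA, fewer cells with a transcript and less transcript per cell cannot be told apart.

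The epithelial label was checked against 13 markers of bronchial epithelium. The keratins KRT8, KRT18 and KRT7 stood at 144 RPKM or more in each library, whereas TP63 and FOXA2 were listed at 0 throughout and CDH1, the epithelial cadherin, at no more than 0.11 RPKM. Of 10 fibroblast markers, COL1A1 and THY1 stood at 136.71 RPKM or more in each library and PDGFRB at 10.58 or more, whereas DCN was listed at 0 throughout and COL3A1, PDGFRA and FAP at no more than 0.07, 0.02 and 0.04 RPKM. Neuronal markers, which matter here because the SLIT and ROBO genes are best known from neurons, summed to at most 0.28 RPKM over 12 genes.

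In the hg19 build used by the study, ROBO1 lies at chr3:78646388-79817059 on the minus strand and ROBO2 at chr3:77147163-77699114 on the plus strand, 947 kb apart. ROBO3 at chr11:124735305-124751370 (plus strand) and ROBO4 at chr11:124754114-124767831 (minus strand) form a tight pair, whose transcripts end 2743 bases from each other. SLIT1 lies at chr10:98757795-98945683 (minus), SLIT2 at chr4:20255187-20622184 (plus) and SLIT3 at chr5:168088738-168728133 (minus). ROBO3 and ROBO4 span 16.07 and 13.72 kb, whereas ROBO1 spans 1171 kb, SLIT3 639.4 kb and SLIT2 367 kb. Reads were summed over the exons of a gene, and no value can be assigned to a particular exon or isoform.

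The start regions of ROBO1, ROBO4 and SLIT3, whose levels differed most between groups, and of SLIT2, whose level differed least, are printed so that their CpG content can be read beside the expression values. Each is 250 bases before to 50 bases after an annotated start, from RefSeq in the GRCh38.p14 build, on the strand of the gene, with each CpG in capitals. ROBO1 has a pair of annotated starts, of which the first listed lies at chr3:79767949-79768248 and the second at chr3:79019410-79019709. The windows of ROBO4, SLIT3 and SLIT2 lie at chr11:124897816-124898115, chr5:169301090-169301389 and chr4:20251655-20251954.
ROBO1 first start: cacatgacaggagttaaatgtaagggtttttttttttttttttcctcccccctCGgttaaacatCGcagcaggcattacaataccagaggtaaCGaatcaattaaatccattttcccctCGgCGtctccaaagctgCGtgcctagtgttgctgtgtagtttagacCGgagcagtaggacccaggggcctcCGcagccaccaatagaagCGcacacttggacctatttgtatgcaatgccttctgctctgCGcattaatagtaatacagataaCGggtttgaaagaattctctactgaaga
ROBO1 second start: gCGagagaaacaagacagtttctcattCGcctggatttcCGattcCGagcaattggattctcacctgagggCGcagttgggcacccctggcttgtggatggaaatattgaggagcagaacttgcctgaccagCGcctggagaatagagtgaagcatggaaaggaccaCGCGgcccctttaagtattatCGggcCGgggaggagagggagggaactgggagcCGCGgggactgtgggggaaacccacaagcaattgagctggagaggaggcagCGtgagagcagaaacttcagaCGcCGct
ROBO4: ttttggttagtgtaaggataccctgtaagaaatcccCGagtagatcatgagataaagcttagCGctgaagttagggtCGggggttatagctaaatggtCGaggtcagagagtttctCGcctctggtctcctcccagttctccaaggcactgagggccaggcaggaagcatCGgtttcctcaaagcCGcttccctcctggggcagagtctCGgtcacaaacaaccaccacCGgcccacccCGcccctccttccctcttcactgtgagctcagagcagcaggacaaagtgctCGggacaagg
SLIT3: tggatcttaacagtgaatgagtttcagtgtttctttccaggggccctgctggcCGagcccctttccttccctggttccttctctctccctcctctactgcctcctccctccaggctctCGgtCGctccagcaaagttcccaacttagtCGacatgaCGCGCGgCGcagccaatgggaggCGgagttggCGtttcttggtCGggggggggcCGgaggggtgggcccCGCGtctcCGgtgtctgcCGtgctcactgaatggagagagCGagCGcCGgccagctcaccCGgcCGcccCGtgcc
SLIT2: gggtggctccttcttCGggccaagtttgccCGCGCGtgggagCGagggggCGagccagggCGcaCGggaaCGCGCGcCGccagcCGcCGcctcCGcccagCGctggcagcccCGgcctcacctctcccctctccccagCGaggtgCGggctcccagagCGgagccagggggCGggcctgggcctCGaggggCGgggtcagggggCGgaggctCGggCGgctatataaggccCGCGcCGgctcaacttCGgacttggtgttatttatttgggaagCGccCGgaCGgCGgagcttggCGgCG

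The 2 windows of ROBO1 held 11 and 15 CpG and that of ROBO4 held 11, against a median of 14 over 35114 RefSeq windows of the same length. The window of SLIT3 held 22 CpG and that of SLIT2 held 36, which put SLIT2 at the 87.3 percentile and ROBO4 at the 45.3 percentile of all windows. For ROBO3, 3 windows held between 19 and 28 CpG. Since the data hold reads per gene, which of the starts of ROBO1 or ROBO3 was used was not measured.

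Short motifs tied to hypoxia and metal responses were also searched on both strands. The hypoxia response core, ACGTG or GCGTG, occurred in 8 of 11 windows of the 7 genes and in 48.4% of all windows. The metal response core, TGCACNC or TGCGCNC, occurred in 3 of 11 windows, which were the second ROBO1 window and those of SLIT1 and SLIT2, and in 29.5% of all windows. The hypoxia core was in both ROBO1 windows and absent from those of ROBO4 and SLIT3. The cores can share bases where they meet, and a match is a description of the letters only.

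SLIT2 and SLIT3 also carry the paired microRNA genes MIR218-1 and MIR218-2 in the same orientation, which encode the same mature miR-218. It is shown because the host genes behaved differently in these cells, with its seed (bases 2 to 8) in capitals.
hsa-miR-218-5p: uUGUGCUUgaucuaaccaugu
Both MIR218 rows were listed at 0 reads in each of the 8 libraries, which were not made for small RNA, so the mature microRNA was not measured.

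Over the 4 groups, the set of ROBO transcripts turned over while the main SLIT transcript, SLIT2, stayed between 4.01 and 5.99 RPKM. Its level was highest in UT. With the dependence on GC content and length taken out, its log2 fold change against UT was -0.66 in Ni-W and -0.57 in HCl3. UT and Ni-E cells had ROBO4 with some ROBO3, Ni-W cells had mostly ROBO1, and HCl3 cells had ROBO1, ROBO3 and ROBO4 side by side. SLIT2 was the main ligand transcript in each library, and SLIT3 was added at a low level in Ni-W and HCl3 cells.

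**Figure D1:**
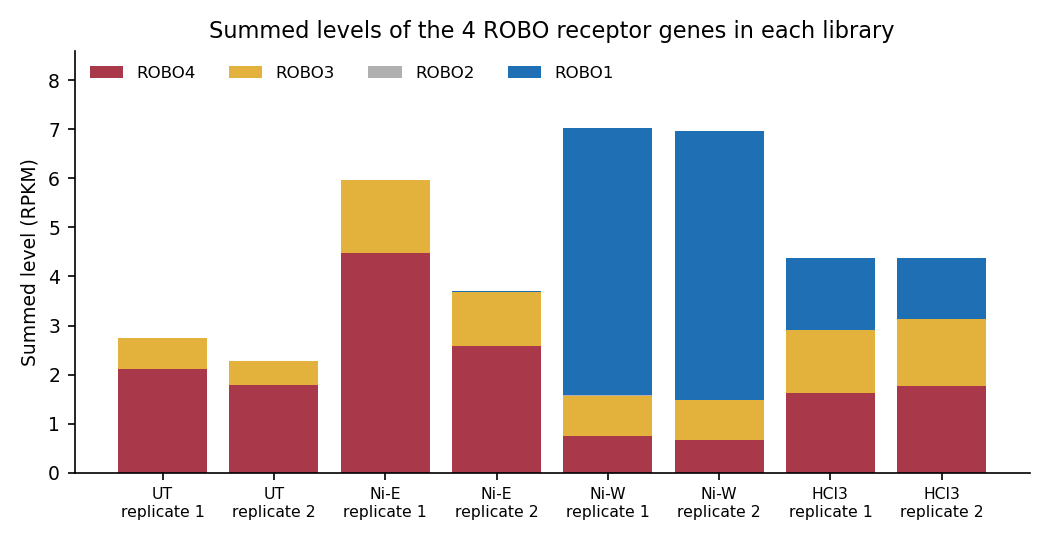
Summed level of the ROBO genes in each of the 8 libraries, in RPKM, with each gene as a coloured part of the bar. ROBO4 makes up 70 to 78.4% of the bar in UT and Ni-E libraries, ROBO1 77.5 and 78.8% in Ni-W libraries, and no gene more than 40.2% in HCl3 libraries.

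The summed ROBO level was 2.75 and 2.27 RPKM in UT and 5.97 and 3.7 RPKM in Ni-E. Ni-W reached 7.02 and 6.97 RPKM and HCl3 4.37 and 4.38 RPKM. The UT libraries were the lowest and the Ni-W libraries the highest. ROBO4 made up 77.1 and 78.4% of this sum in UT and 74.9 and 70% in Ni-E. In Ni-W it made up 10.5 and 9.61%, and ROBO1 77.5 and 78.8%. In HCl3 the shares were 33.6 and 28.5% for ROBO1, 29.1 and 31.3% for ROBO3, and 37.3 and 40.2% for ROBO4, so that no receptor dominated. Of the summed SLIT level, SLIT2 made up at least 91.7% in each library.

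ROBO1, the prototype receptor of this family, had 0 and 0 reads in UT and 1 and 2 reads in Ni-E. It had 2052 and 1397 reads in Ni-W, or 5.44 and 5.49 RPKM. In HCl3 it had 440 and 395 reads, or 1.47 and 1.25 RPKM. The gene was thus listed at or near 0 in UT and Ni-E, highest in Ni-W and intermediate in HCl3, with no overlap between Ni-W, HCl3 and the other libraries. The Ni-W mean was 5.46 ± 0.035 RPKM and the HCl3 mean 1.36 ± 0.16 RPKM (SD, n = 2). The only other listed gene inside its interval, LOC101927374 on the opposite strand, had 0 reads in each library.

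ROBO4, the endothelial receptor, had 345 and 201 reads in UT (2.12 and 1.78 RPKM) and 662 and 380 in Ni-E (4.47 and 2.59 RPKM). It had 146 and 90 reads in Ni-W (0.74 and 0.67 RPKM) and 257 and 290 in HCl3 (1.63 and 1.76 RPKM). Ni-E was therefore highest, though its replicates lay far apart, Ni-W was lowest, and HCl3 stood just under UT. The means were 1.95 ± 0.24, 3.53 ± 1.3, 0.705 ± 0.049 and 1.69 ± 0.092 RPKM in the order UT, Ni-E, Ni-W and HCl3 (SD, n = 2 each).

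Since ROBO4 marks endothelium, 11 other endothelial genes were read beside it. PECAM1, CDH5, KDR and TEK were listed at 0 in UT and at no more than 0.04 RPKM in any library. ERG and ESAM, at no more than 0.05 RPKM in UT, reached 0.36 and 0.37 RPKM in Ni-W. TIE1 did not rise there, with 0.22 and 0.15 RPKM in UT and 0.1 and 0.23 in Ni-W. It had 0.5 and 0.25 RPKM in Ni-E and 0.43 and 0.42 in HCl3. The summed level of the list was 13.6 to 17.5 RPKM in UT, 26 to 28.9 in Ni-E, 29.7 to 34.9 in Ni-W and 32.1 to 33 in HCl3. Nearly all of it was EGFL7, a secreted factor, which had 13.3 RPKM in its lowest library. Of the list, 1 of 5 tested genes was called against UT for Ni-E, 5 of 8 for Ni-W and 5 of 9 for HCl3, each higher, where 5.8, 15.7 and 14.8% of all genes were called. FLT1, a receptor for vascular growth factors, had 0.02 and 0.03 RPKM in UT, whereas Ni-W had 1.77 and 1.7 and HCl3 1.94 and 1.56 RPKM. The summed levels of Ni-W, where ROBO4 was lowest, and HCl3 thus overlapped, and the part of these genes in the ROBO4 result was not tested.

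ROBO3, the divergent receptor next to ROBO4, had 122 and 66 reads in UT (0.63 and 0.49 RPKM) and 262 and 191 in Ni-E (1.49 and 1.1 RPKM). It had 193 and 128 reads in Ni-W (0.82 and 0.81 RPKM) and 238 and 268 in HCl3 (1.27 and 1.37 RPKM). UT was lowest, Ni-W next, and Ni-E and HCl3 overlapped at the top. The means were 0.56 ± 0.099, 1.29 ± 0.28, 0.815 ± 0.0071 and 1.32 ± 0.071 RPKM in UT, Ni-E, Ni-W and HCl3 (SD, n = 2 each). ROBO3 was thus lowest in UT, whereas its neighbour ROBO4 was lowest in Ni-W.

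ROBO2, the remaining neuronal receptor and the neighbour of ROBO1, had 7 reads in Ni-W replicate 1 and 0 in each of the other 7 libraries. It was too low to be tested in any comparison.

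SLIT2, a ligand that binds ROBO1 with high affinity, had 1439 and 1125 reads in UT (5.32 and 5.99 RPKM) and 1096 and 979 in Ni-E (4.45 and 4.01 RPKM). It had 1450 and 1084 reads in Ni-W (4.41 and 4.88 RPKM) and 1324 and 1312 in HCl3 (5.03 and 4.77 RPKM). UT held the highest values and Ni-E overlapped with Ni-W at the lower end, within a range of 4.01 to 5.99 RPKM. The means were 5.66 ± 0.47, 4.23 ± 0.31, 4.64 ± 0.33 and 4.9 ± 0.18 RPKM in UT, Ni-E, Ni-W and HCl3 (SD, n = 2 each).

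SLIT3, a ligand known from diaphragm and blood vessel development, had 8 and 2 reads in UT and 0 and 0 in Ni-E. It had 108 and 92 reads in Ni-W (0.22 and 0.27 RPKM) and 156 and 172 in HCl3 (0.39 and 0.41 RPKM). It was thus seen in both washed-out groups, with HCl3 above Ni-W and no overlap. It made up a small part of the SLIT transcript sum, with 4.73 and 5.24% for the Ni-W libraries and 7.16 and 7.88% for the HCl3 libraries.

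SLIT1, the ligand known mainly from brain, had between 0 and 10 reads per library, with 6 and 0 for UT, 4 and 6 for Ni-E, 9 and 0 for Ni-W, and 10 and 6 for HCl3. Groups overlapped in each of the 6 comparisons, and no difference was detectable at this depth. The rows ARHGAP19-SLIT1, a read-through listed on the same strand, LOC100505540, SLIT2-IT1, CTB-174D11.1 and MIR585, which overlap SLIT genes, had at most 13 reads in any library.

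**Figure D2:**
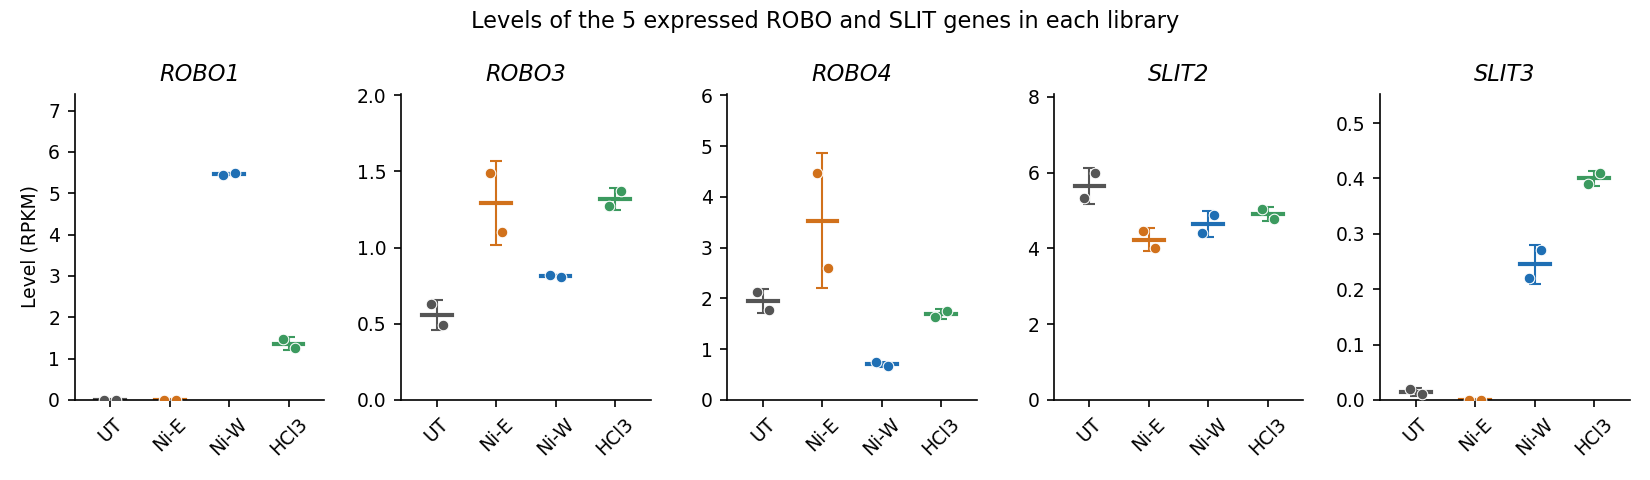
Level in RPKM of the 5 genes with more than 10 reads in any library, with points for the 2 libraries of each group, a bar for the mean and error bars for the SD. ROBO1 is at or near 0 in UT and Ni-E and at 1.25 RPKM or more in Ni-W and HCl3, ROBO4 is lowest in Ni-W, and SLIT3 reaches no more than 0.41 RPKM.

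Nickel exposure itself was addressed by Ni-E against UT. ROBO3 rose by 1.14 ± 0.31 on the log2 scale (2.2-fold, adjusted P = 0.00375) and ROBO4 by 0.80 ± 0.25 (1.74-fold, adjusted P = 0.0204), both with all Ni-E libraries above all UT libraries. SLIT2 was lower by a smaller step, with a log2 fold change of -0.47 ± 0.15 (adjusted P = 0.0154), which is under the 1.5-fold needed for a call. Of the 7 genes 4 could be tested and 2 were called, both higher, where 5.8% of all 14478 genes tested were called and 3.75% were called higher. These are DESeq2 tests between the 4 libraries of the pair, with errors given as SE. SLIT3, with 10 reads over both UT libraries and 0 in Ni-E, was not tested in this fit. It was called in one fit of all 8 libraries. The ROBO3 call was lost without Ni-E replicate 1 (log2 fold change 0.89, adjusted P = 0.471), UT replicate 2 (0.98, adjusted P = 0.221) or Ni-E replicate 2 (1.36, adjusted P = 0.0533). The ROBO4 call was lost without Ni-E replicate 1 (0.33, adjusted P = 0.823), UT replicate 1 (0.93, adjusted P = 0.0908) or UT replicate 2 (0.68, adjusted P = 0.379), and once the dependence on GC content and length was taken out (0.63, adjusted P = 0.0986).

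The lasting state after wash-out was addressed by Ni-W against UT. ROBO1 was at least 381-fold higher in Ni-W, a bound set by the level of 3 reads in UT. ROBO4 fell by 1.5 ± 0.25 on the log2 scale (2.83-fold, adjusted P = 5.97e-08). SLIT3 rose by 4.09 ± 0.65 (17-fold, adjusted P = 7.32e-09), from 10 reads over both UT libraries to 200 over both Ni-W libraries. ROBO3 had a log2 fold change of 0.49 ± 0.31 (95% interval -0.11 to 1.10, adjusted P = 0.236) and SLIT2 of -0.32 ± 0.14 (95% interval -0.59 to -0.05, adjusted P = 0.0579). Aside from ROBO1, 2 of 5 genes tested were called, beside 15.7% of the 15826 genes tested. The ROBO4 and SLIT3 calls remained without any 1 of the 4 libraries, with adjusted P at most 0.00403 and 0.00303, though the log2 fold change of SLIT3 was 5.09 without UT replicate 1 and 3.61 without UT replicate 2. With the dependence on GC content and length taken out, SLIT2 passed both thresholds (log2 fold change -0.66, adjusted P = 3.82e-07).

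The step from exposure to wash-out was addressed by Ni-W against Ni-E. ROBO4 had its largest difference here and fell by 2.32 ± 0.27 on the log2 scale (4.99-fold, adjusted P = 2.1e-16). ROBO3 fell by 0.66 ± 0.27 (1.58-fold, adjusted P = 0.0359). SLIT3, with 0 reads in Ni-E, was at least 30.3-fold higher in Ni-W (adjusted P = 4.35e-08). ROBO1 stood at a ratio of 1032 between Ni-W and Ni-E, with a counting interval of 353 to 5004 that covers the error of 3 reads in Ni-E only. SLIT2 had a log2 fold change of 0.14 ± 0.14 (95% interval -0.13 to 0.40, adjusted P = 0.465). Aside from ROBO1, 3 of 5 genes tested were called, beside 20.5% of 15989 genes. The ROBO3 call was lost without Ni-E replicate 1 (adjusted P = 0.483), Ni-W replicate 1 (0.28) or Ni-W replicate 2 (0.277).

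HCl3 against UT brought in washed-out libraries that had not entered the choice of ROBO1, although the UT libraries had. ROBO1 was at least 93.7-fold higher in HCl3, given as a description. SLIT3 rose by 4.77 ± 0.58 on the log2 scale (27.4-fold, adjusted P = 7.22e-15), and ROBO3 by 1.17 ± 0.27 (2.24-fold, adjusted P = 0.000116). ROBO4 had a log2 fold change of -0.26 ± 0.21 (95% interval -0.68 to 0.15, adjusted P = 0.377) and SLIT2 of -0.26 ± 0.12 (95% interval -0.50 to -0.01, adjusted P = 0.102). Aside from ROBO1, 2 of 5 genes tested were called, both higher, beside 14.8% of 15766 genes called and 11.1% called higher. The ROBO3 call was lost without either HCl3 library (adjusted P = 0.0622 and 0.114), and the log2 fold change of SLIT3 was 5.78 without UT replicate 1. ROBO4 was called lower once GC content and length were corrected for (log2 fold change -0.69, adjusted P = 0.00112). SLIT2 then had a log2 fold change of -0.57 (adjusted P = 6.22e-07), which is under 1.5-fold.

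The direct comparison of the washed-out groups was HCl3 against Ni-W. ROBO1 was 4.07-fold lower in HCl3, a log2 fold change of -2.02 ± 0.12, given as a description. ROBO4 was higher in HCl3 by 1.24 ± 0.23 on the log2 scale (2.37-fold, adjusted P = 3.54e-06) and ROBO3 by 0.68 ± 0.22 (1.6-fold, adjusted P = 0.0178). SLIT3 had a log2 fold change of 0.71 ± 0.28 (95% interval 0.16 to 1.26, adjusted P = 0.062), and SLIT2 of 0.07 ± 0.11 (95% interval -0.15 to 0.28, adjusted P = 0.795). Aside from ROBO1, 2 of 5 genes tested were called, beside 4.77% of 14956 genes. The ROBO3 call was lost without any 1 of the 4 libraries (adjusted P = 0.171 to 0.567) and after correction for GC content and length (adjusted P = 0.107), and the ROBO4 call without HCl3 replicate 2 (adjusted P = 0.0623). By the edgeR quasi-likelihood test SLIT3 was called higher in HCl3 (adjusted P = 0.0154), as it was by DESeq2 with a mean count of at least 10 (0.0355). SLIT3 was not called by DESeq2 with all 8 libraries in one fit (adjusted P = 0.219) or with the replicate block (0.301). Without 1 library its log2 fold change ran from 0.54 to 0.88.

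HCl3 against Ni-E set the remaining washed-out group beside ongoing exposure. ROBO1 had a ratio of 253, with a counting interval of 86.3 to 1230, given as a description since the Ni-E libraries had entered its choice, and SLIT3 was at least 49.2-fold higher in HCl3 (adjusted P = 1.37e-09). ROBO4 fell by 1.08 ± 0.24 on the log2 scale (2.11-fold, adjusted P = 4.45e-05). ROBO3 had a log2 fold change of 0.01 ± 0.24 (95% interval -0.46 to 0.49, adjusted P = 0.976), and SLIT2 of 0.20 ± 0.12 (95% interval -0.04 to 0.44, adjusted P = 0.208). Aside from ROBO1, 2 of 5 genes tested were called, beside 17.1% of 15953 genes. The ROBO4 call was lost without Ni-E replicate 1 (adjusted P = 0.0748). The 3 comparisons against UT share the UT libraries, and those against Ni-E share the Ni-E libraries, so their calls are not independent.

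**Figure D3:**
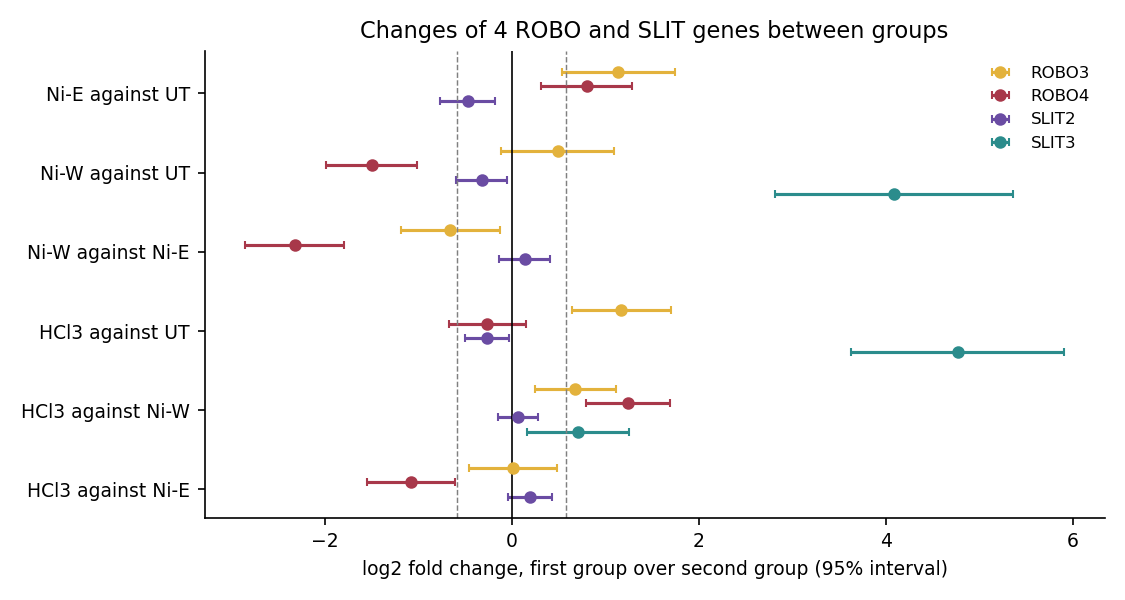
Log2 fold change of ROBO3, ROBO4, SLIT2 and SLIT3 in the 6 comparisons, first group over second, with points for the DESeq2 estimate, bars for the 95% interval and dashed lines at 1.5-fold. SLIT3 against Ni-E is left out because Ni-E had 0 reads. ROBO4 lies right of 0 in Ni-E against UT at 0.80 and left of 0 in Ni-W against UT at -1.5, and the SLIT2 points lie between -0.47 and 0.20.

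Other genes of the pathway were read from 4 lists with 57 genes in all. They were 23 intracellular effectors (such as the SRGAP and NCK genes, RAC1 and the PAK kinases), 15 heparan sulfate and matrix genes (syndecans, glypicans and the enzymes that make heparan sulfate chains), 11 netrin ligands and DCC-type receptors, and 8 other partners. Between Ni-E and UT 3 were higher and 1 lower of 45 tested, with 5.8% of all genes called and a median log2 fold change of -0.08 where the median of all genes was -0.00. Between Ni-W and UT 8 were higher and 1 lower of 47 (15.7% of all genes called, median 0.10 beside 0.01), and between HCl3 and UT 13 were higher and 1 lower of 49 (14.8% of all genes called, median 0.21 beside 0.01, or 0.16 with genes at 0 in a group set to their bound). Without HCl3 replicate 2, 8 genes rather than 14 were called in HCl3 against UT. Between HCl3 and Ni-W 3 were higher and 0 lower of 45, beside 4.77% of all genes. Against Ni-E, 8 were higher and 3 lower of 46 in Ni-W (20.5% of all genes called), and 9 higher and 3 lower of 48 in HCl3 (17.1% of all genes called).

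Among the effectors, which act below the receptors, 1 of 23 was called against UT for Ni-E, 2 for Ni-W and 2 for HCl3, where 5.8, 15.7 and 14.8% of all genes were. NCK2, an adaptor that binds the receptor tail, was 8.55 and 8.96 RPKM in UT and 14.33 and 12.99 in Ni-E, so that it rose by 0.67 ± 0.15 on the log2 scale (adjusted P = 0.000169). Its log2 fold change was 0.64 in Ni-W and 0.60 in HCl3, both called. SRGAP1, a GTPase-activating protein recruited by ROBO1, was called lower in Ni-W at a log2 fold change of -0.75 (adjusted P = 6.16e-05). SRGAP2 has near-identical copies in the genome, and its count is uncertain.

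The heparan sulfate group, which holds SLIT at the cell surface, had 6 of 12 tested genes called higher in HCl3 against UT, where 11.1% of all genes were. In Ni-W against UT 3 of 12 were called, where 15.7% of all genes were. SDC2, a syndecan, was at 8.46 and 8.91 RPKM in UT and at 3.28 and 4.37 RPKM in Ni-E. Ni-W had 15.15 and 16.73 RPKM and HCl3 18.09 and 17.84 RPKM. It was thus lowest in Ni-E and highest in the washed-out groups, without overlap of Ni-E with any other group. Its log2 fold change against UT was -1.24 ± 0.17 in Ni-E (adjusted P = 5.75e-11), 0.84 ± 0.13 in Ni-W (adjusted P = 6.94e-10) and 0.99 ± 0.11 in HCl3 (adjusted P = 3.09e-17). SDC4, another syndecan, rose from 101.64 and 100.26 RPKM in UT to 187.87 and 177.93 in Ni-W (by 0.82 ± 0.10 on the log2 scale, adjusted P = 5.35e-16). GPC1, a glypican, was 1.22 ± 0.08 higher in HCl3 than in Ni-E on the log2 scale (adjusted P = 5.61e-45), and SDC1 0.67 ± 0.08 higher in HCl3 than in Ni-W (adjusted P = 5.38e-14).

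Of the netrin group, a guidance system whose receptor DCC can be silenced by ROBO1, DCC, UNC5D and DSCAM were listed at or near 0. NTN1, the founding netrin, was at 0.2 and 0.1 RPKM in UT and at 1.37 and 1.69 RPKM in Ni-E. Ni-W had 0.73 and 0.69 RPKM and HCl3 0.57 and 0.64 RPKM. All treated libraries were above UT, with Ni-E highest. Its log2 fold change against UT was 3.27 ± 0.33 in Ni-E (adjusted P = 6.18e-20), 2.20 ± 0.39 in Ni-W (adjusted P = 2.15e-07) and 1.94 ± 0.40 in HCl3 (adjusted P = 1.1e-05). NEO1, a receptor related to DCC, rose from 4.57 and 4.94 RPKM in UT to 12.2 and 13.0 in Ni-W (by 1.37 ± 0.12 on the log2 scale, adjusted P = 3.39e-29) and 12.07 and 11.25 in HCl3 (1.24 ± 0.11, adjusted P = 4.85e-27). In Ni-E its log2 fold change was 0.36 (adjusted P = 0.0726). NTN4 separated the washed-out groups, with 0.85 and 0.82 RPKM in Ni-W and 2.35 and 2.44 in HCl3 (log2 fold change 1.5 ± 0.21, adjusted P = 7.61e-11). UNC5B, a repellent netrin receptor, was 1.04 ± 0.43 higher in Ni-W than in Ni-E on the log2 scale (adjusted P = 0.0422), at levels of at most 0.41 RPKM.

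**Figure D4:**
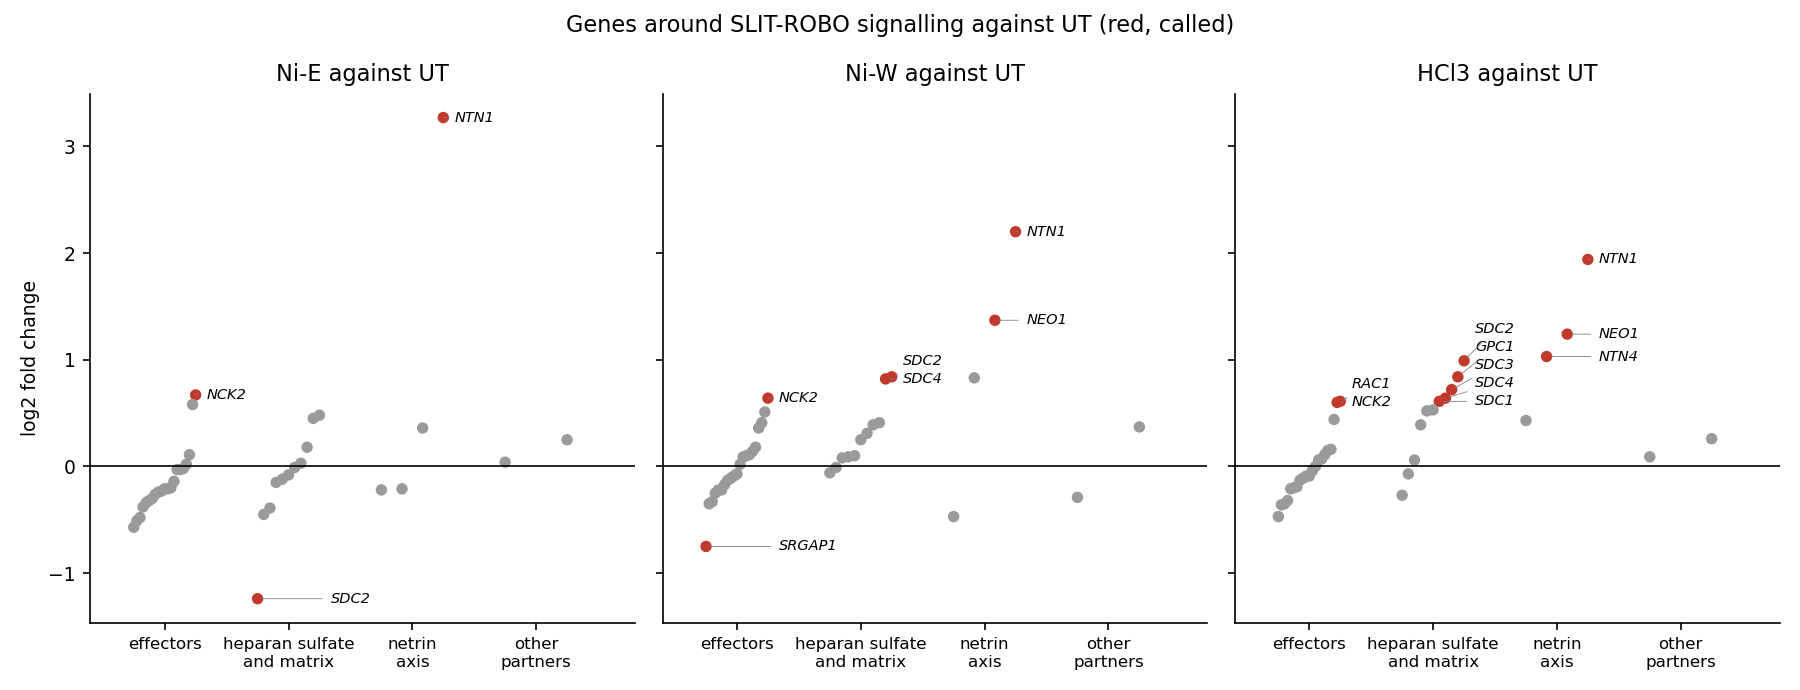
Log2 fold change against UT (vertical axis) of pathway genes whose mean normalized count reached 50, in columns for the 4 lists, for Ni-E, Ni-W and HCl3, with called genes in red and named. NTN1 is the highest point in each panel, at 3.27, 2.20 and 1.94, and SDC2 lies at -1.24 in Ni-E and at 0.84 and 0.99 in the washed-out groups.

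For each of the 5 expressed members, the genes with the most similar pattern were taken from 12015 genes whose mean normalized count reached 50, by Pearson's r of log2 normalized counts over the 8 libraries. These r values describe 4 groups of 2 libraries rather than 8 independent samples. ROBO1 was most like CDH11, a mesenchymal cadherin (r = 0.9990), FAM109B (0.9969) and COL8A1, a collagen chain (0.9967). CDH11 had 0 and 0 RPKM in UT and 0.01 and 0.01 RPKM in Ni-E. Ni-W had 1.0 and 1.08 RPKM and HCl3 0.35 and 0.38 RPKM, the same order of groups as for ROBO1. ROBO4 was most like SFN, which encodes 14-3-3 sigma (r = 0.9900), and ROBO3 most like POLD2, a DNA polymerase subunit (0.9876). SFN had 36.54 and 33.1 RPKM in UT and 49.5 and 44.02 RPKM in Ni-E. Ni-W had 22.78 and 22.31 RPKM and HCl3 35.0 and 35.8 RPKM. SLIT2 was most like BIRC2, an inhibitor of apoptosis (r = 0.9918), and SLIT3 most like SLC22A15 (0.9972), IRS2, an adaptor of the insulin receptor (0.9949), and MEGF6 (0.9932). The other nearest genes were RAB3IL1 and DBNDD1 for ROBO4, SERINC2 and DDX56 for ROBO3, and ZNF317 and KITLG for SLIT2. Within the family, ROBO1 had an r of 0.89 with SLIT3 and of -0.79 with ROBO4.

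The surroundings of ROBO1 on chromosome 3 were read to see whether nearby genes moved with it. Within 5 Mb of its ends 13 other genes were listed, of which 3 reached the same mean count of 50. GBE1, the glycogen branching enzyme, had a log2 fold change of 0.39 ± 0.11 in Ni-W against UT (adjusted P = 0.00286), which is under 1.5-fold, and of 0.62 ± 0.10 in Ni-W against Ni-E (adjusted P = 2.62e-08). FAM86DP and LINC00960 had log2 fold changes of -0.05 ± 0.31 and 0.20 ± 0.23 in Ni-W against UT (adjusted P = 0.936 and 0.583). LINC00960 was lower in HCl3 than in each other group, with log2 fold changes of -0.73 ± 0.25 against UT (adjusted P = 0.0121), -1.0 ± 0.23 against Ni-E (adjusted P = 9.59e-05) and -0.92 ± 0.22 against Ni-W (adjusted P = 0.000511), and FAM86DP was lower in HCl3 than in Ni-E (-0.77 ± 0.31, adjusted P = 0.0376). ROBO1 was higher in HCl3 than in UT and Ni-E, the opposite direction to the changes of LINC00960 and FAM86DP against those groups. Against Ni-W, ROBO1 was lower in HCl3 (log2 fold change -2.02), the same direction as LINC00960. GBE1 went in the direction of ROBO1, with log2 fold changes in HCl3 of 0.44 ± 0.09 against Ni-E (adjusted P = 2.57e-05) and 0.20 ± 0.10 against UT (adjusted P = 0.133). Both are under 1.5-fold, and a part of the region in the ROBO1 result was not tested.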

How the data were processed

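RNA was sequenced from 8 BEAS-2B libraries, and per the labels they formed 4 groups of 2. The authors aligned reads to hg19 by STAR 2.4, kept only reads with a unique alignment, and deposited read counts and RPKM per RefSeq gene through BioWardrobe, RPKM being rounded to 2 decimals. Whether counting was strand-specific is not given in the sources used here. Members and gene lists were chosen with earlier results of these data known. Each pair of groups was fitted on its deposited counts with DESeq2 1.42.0 (two-sided Wald test, median-of-ratios size factors, independent filtering, Benjamini-Hochberg adjustment over all genes), in R 4.3.3. A call needed an adjusted P under 0.05 and 1.5-fold. With 2 libraries a group the tests borrow the spread of other genes, and an exact permutation of 4 libraries cannot go under 0.333. A fold against a group at 0 was set against 3 reads in the shallowest library of the group, and a ratio to 1 to 3 reads carries a 95% counting interval, both covering counting error only. Pathway genes named were the up to 4 largest changes per comparison among those called whose mean normalized count reached 50. Exceptions, named after their values were seen, were SRGAP1, SRGAP2, NEO1 in Ni-E, NCK2 in washed-out cells, FLT1, EGFL7, ERG, ESAM and TIE1. Alternatives were edgeR 4.0.16, limma 3.58.1 on log2(RPKM + 1) or (+ 0.1), TMM, all 8 libraries in one fit, a mean count of at least 10, other fold thresholds, the replicate suffix as a block, each library left out, and, added after the data were seen, removal of GC and length trends and a crossed block. The scripts were tested on simulated data.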

Additional observations from a re-analysis of the deposited data

Results flagged for a closer look

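For 2 receptors the washed-out groups differed in the direct test of HCl3 against Ni-W, although both groups carry the same treatment text. ROBO4 had a log2 fold change of 1.24 (higher in both HCl3 libraries than in both Ni-W libraries, adjusted P = 3.54e-06 by DESeq2) and ROBO3 of 0.68 (higher in both HCl3 libraries, adjusted P = 0.0178 by DESeq2, lost without any 1 library). The ROBO4 call was also lost by limma on log2(RPKM + 1) and (+ 0.1), with adjusted P of 0.0572 and 0.0793. By the same settings ROBO3 had 0.0802 and 0.129. The clone, the experiment number and the group cannot be told apart here.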

How the results depend on the processing

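Of 375 values of single members under alternatives, 310 kept their direction and whether they were called (adjusted P and 1.5-fold together, not each alone). Of the others, 48 lost a call, 4 gained one and 13 changed sign. Only values called in the reported fit could lose a call, so 48 of 375 is not the share of calls lost. Values without an adjusted P were taken as not called. Of 87 counts of members called, 68 stayed within 1.5 times the reported count. The ROBO4 and SLIT3 calls of Ni-W against UT remained under the replicate block and with edgeR. By limma on log2(RPKM + 1) the SLIT3 call was lost, with a log2 fold change of 0.29. ROBO4 was still called by limma on log2(RPKM + 1) and (+ 0.1), with adjusted P of 0.0434 and 0.049. In Ni-E against UT, 2 members were called, but 0 by either limma setting, 0 with the replicate block and 1 with the crossed block. The count was 1 after removal of GC and length trends and 1 at 2-fold. It was 3 with all 8 libraries in one fit, where SLIT3 was called beside ROBO3 and ROBO4. In Ni-W against Ni-E, 4 were called with ROBO1 counted, but 1 by limma on log2(RPKM + 1), 2 on log2(RPKM + 0.1), 2 with the replicate block and 2 with the crossed block. In HCl3 against UT, 3 with ROBO1 counted became 1 by limma on log2(RPKM + 1). In HCl3 against Ni-W, 3 with ROBO1 counted became 1 by both limma settings and 1 to 2 without 1 library, the lowest without HCl3 replicate 2. In HCl3 against Ni-E, 3 with ROBO1 counted became 1 by limma on log2(RPKM + 1). Where ROBO1 was counted and 1 member was left, that member was ROBO1, so no member chosen by name was called there. The 375 single values include those of ROBO1 in HCl3 against UT and against Ni-E, all of which kept their call. The 87 counts of members called include ROBO1 wherever it was called. In both cases its values are a description and no support for the stability of the calls. The pathway genes called numbered 4 (Ni-E), 9 (Ni-W) and 14 (HCl3) against UT, but 0, 3 and 6 by limma on log2(RPKM + 1), 0 (Ni-E) and 9 (HCl3) on log2(RPKM + 0.1), and 12, 17 and 22 with no fold threshold, and Ni-W and HCl3 had 5 and 7 at 2-fold. Those of HCl3 against Ni-W numbered 3, but 1 by both limma settings and 14 with no fold threshold. Those against Ni-E numbered 11 in Ni-W and 12 in HCl3, but 6 and 7 by limma on log2(RPKM + 1), 6 and 6 at 2-fold, and 24 and 21 with no fold threshold. The cause was not tested.

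Sign changes befell values that had not been called. SLIT1, whose values without 1 library ran from -0.18 to 4.32 in Ni-E against UT, from -3.79 to 3.78 in Ni-W against UT and from -4.61 to 0.43 in Ni-W against Ni-E, went to -0.18 without UT replicate 2 in Ni-E against UT, to -0.00 by limma on log2(RPKM + 0.1), -0.06 after removal of GC and length trends, -0.70 without UT replicate 2 and -3.79 without Ni-W replicate 1 in Ni-W against UT, and to 0.43 without Ni-W replicate 2 in Ni-W against Ni-E. SLIT2 went to -0.21 (Ni-W against Ni-E) and -0.12 (HCl3 against Ni-E) after removal of GC and length trends, and to -0.01 without Ni-W replicate 1 in HCl3 against Ni-W (range without 1 library -0.01 to 0.14). ROBO3 in HCl3 against Ni-E went to -0.01 with TMM, -0.22 after removal of GC and length trends, -0.22 without Ni-E replicate 2 and -0.04 without HCl3 replicate 2 (range without 1 library -0.22 to 0.27).

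Deviations of libraries with the same replicate suffix had r from -0.159 to 0.222 across genes, highest in Ni-W against UT. These values cannot settle whether libraries were paired, and the labels do not say what the replicate suffix stands for. With it as a block, SLIT3 against Ni-E had an adjusted P of 0.0752 in Ni-W and 0.0526 in HCl3, ROBO3 of 0.0613 and ROBO4 of 0.0951 in Ni-E against UT, and ROBO3 of 0.166 in Ni-W against Ni-E and 0.182 in HCl3 against Ni-W. Depth limits SLIT1 and ROBO2, which had at most 10 and 7 reads in a library.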
